A study of Homo sapiens with 12 samples.

Results

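Messenger RNA of 9 genes for matrix proteases and their inhibitors (MMP1, MMP3, MMP9, MMP14, PLAU, PLAUR, TIMP1, TIMP2 and TIMP3) was followed in MDA-MB-231, a highly invasive breast cancer cell line without oestrogen receptor. All probes that the platform annotation assigns to these symbols were taken, which gave 13 of the 48803 probes on the array, and all 12 arrays of the series were used. The study compared cells after silencing of cyclin D1 or of its kinase partners CDK4 and CDK6. The labels put 3 Illumina BeadChip arrays in each of 4 groups: CDK4/6 siRNA, cyclin D1 siRNA, a non-targeting siRNA and a control. The arrays of the last group are titled Control and are read here as cells that received no siRNA. All 4 groups are the same cell line, and no other agent or allele is labelled. The legends of the study's array plots speak of averages over independent experiments, but the labels do not say which arrays came from separate cultures, so p-values are read here as the spread between these arrays, whose number limits the precision. Each array measured the RNA of a whole culture, in which less RNA per cell and fewer cells with a high level cannot be told apart.

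The intensities of the targeted genes went against several labels, so each array is named here by its label and kept in its labelled group. CCND1, which encodes cyclin D1, lay between 2702 and 3513 on cyclin D1 siRNA replicate 2, no siRNA replicate 2 and non-targeting siRNA replicate 1, and between 4311 and 5100 on the third replicates of cyclin D1 siRNA, CDK4/6 siRNA and non-targeting siRNA. On the other 6 arrays it lay between 13659 and 15393. CDK4 lay between 275 and 409 on no siRNA replicate 3 and the second replicates of CDK4/6 siRNA and non-targeting siRNA, and between 2167 and 2771 on the other 9. CDK6 was low on the same 3 arrays as CDK4. The protease and inhibitor genes were therefore examined against the measured CCND1 and CDK4 levels as well as by label. The mesenchymal genes known from this line were present, VIM between 13992 and 16971 over both its probes, whereas ESR1, which encodes the oestrogen receptor, was near background (37.8 to 46.1, above it on 2 arrays). Of the other luminal markers, PGR and FOXA1 were not above background on any array, while KRT18 (5192 to 6215 with its brightest probe), KRT19 (3133 to 4123), ERBB3 (2875 to 3933 with its brightest probe) and KRT8 (933 to 1294) were well above it on all 12.

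Invasive cells cut through the surrounding matrix with secreted and membrane-bound proteases. Matrix metalloproteinases (MMPs) are zinc enzymes made as inactive precursors, and urokinase, the product of PLAU, turns plasminogen into plasmin at the cell surface when it is bound to its receptor, the product of PLAUR. The tissue inhibitors of metalloproteinases (TIMPs) bind and block active MMPs, and TIMP2 with MMP14 also takes part in the activation of another member of the family, MMP2. AP-1 and ETS transcription factors are known regulators of many of these genes.

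Of the 13 probes, 12 were tested: they lay above the background level of 44.3 on at least 3 arrays, as did 27021 probes in all (55.4% of the table). Intensity is the brightness of a probe on a linear scale and depends on the probe, so levels are compared between arrays only, and not between genes. MMP14, TIMP1 and 1 TIMP2 probe were bright on every array, while MMP9 sat at the edge of background. MMP1 varied most, 2.73-fold between its lowest and highest array, followed by TIMP3 (1.97-fold) and PLAU (1.62-fold). The other 9 tested probes varied between 1.20-fold and 1.48-fold. In the plot of intensities by label, no gene separates 1 label from the others.

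**Figure D1:**
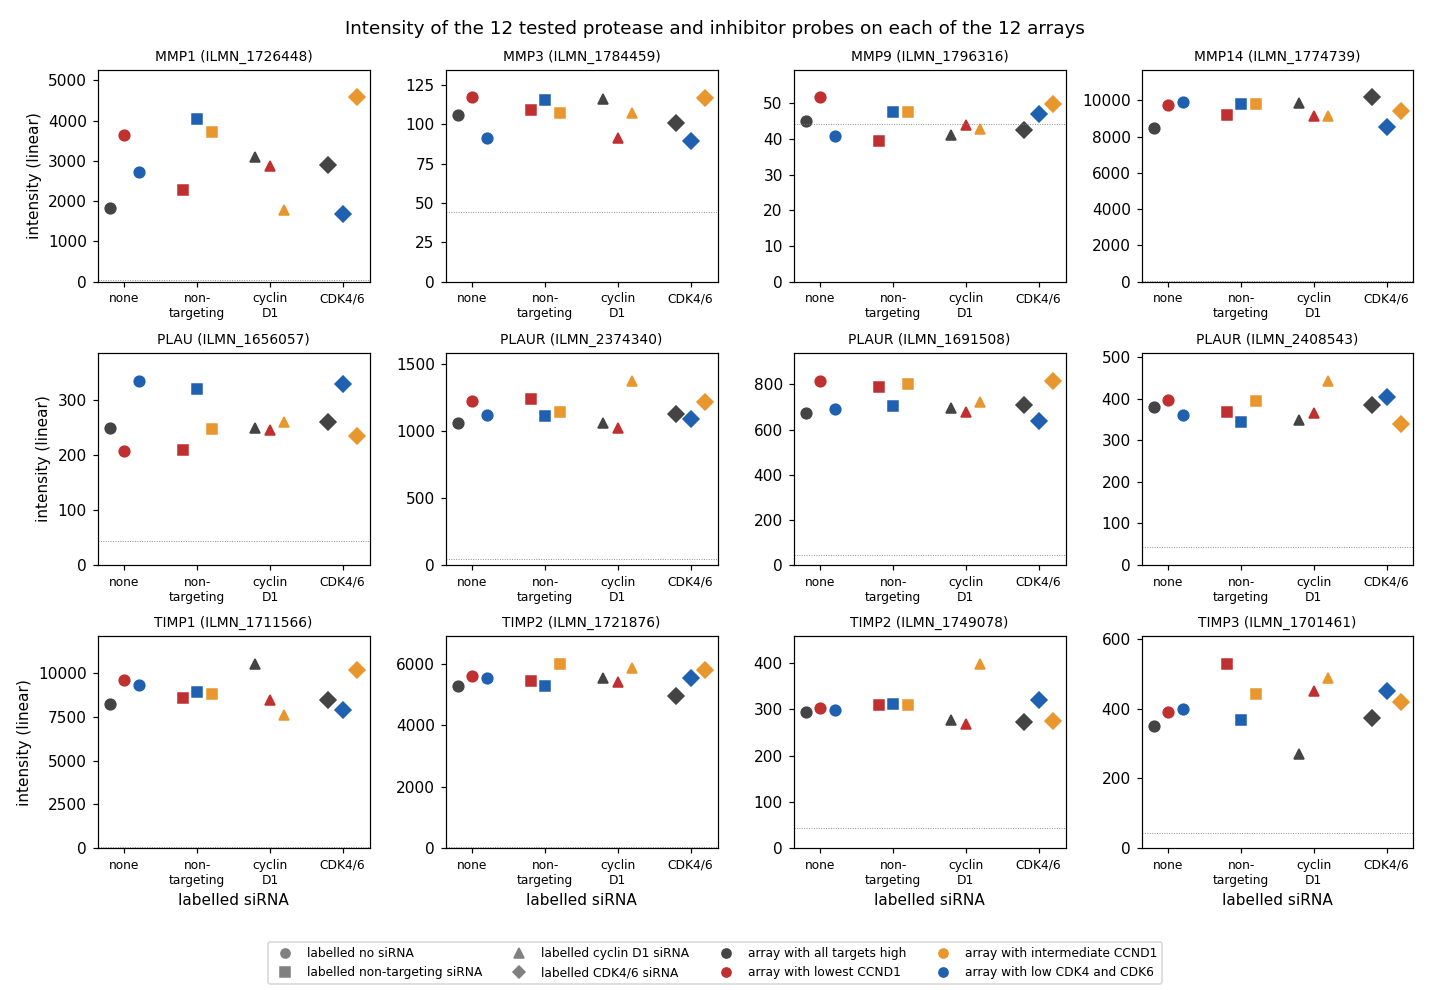
Intensity (linear scale, vertical axes starting at 0) of the 12 tested probes on each of the 12 arrays, placed by labelled siRNA. Marker shape gives the label and colour the measured level of CCND1, CDK4 and CDK6, with the background level of 44.3 as a dotted line. PLAU lay between 321 and 335 on the 3 arrays with low CDK4 and CDK6 and at 260.0 or below on the other 9.

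To ask how the genes changed with the targets, 1 limma fit over all 12 arrays gave each probe a slope on log2 CCND1 and a slope on log2 CDK4, both in the same model. A slope of 1 would mean that a probe rises by 1 log2 unit for each log2 unit of the target, and p-values were Benjamini-Hochberg adjusted over the 27019 probes tested, with a threshold of 0.05. PLAU fell with rising CDK4, and no other probe of the 9 genes passed the threshold on either slope. With CDK4, 1 of the 12 probes had a negative slope past the threshold, where 0.366% of all probes did, and none had a positive one, where 1.88% did, so that 2.25% of all probes passed in either direction. With CCND1, 0 of the 12 probes passed by limma, against 3.39% of all probes (2.44% with a positive and 0.955% with a negative slope), and 3 of the 12 (PLAU, TIMP3 and 1 PLAUR probe) were at an unadjusted p below 0.05, as were 13.7% of all probes. The median slope on CCND1 was -0.036 for the 12 probes and -0.0030 for all probes, and on CDK4 it was -0.011 and -0.0024. The arrays fall into separate sets of CCND1 and CDK4 levels, none with 6 arrays, so a slope sums up differences between such sets and no correlation with the targets is given. CCND1 and CDK4 were themselves related over the 12 arrays (r = -0.54 on the log2 scale, as a description), and no array was low in both. In the deposited order of the arrays each set is a run of neighbours, so target level and array order cannot be told apart.

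**Figure D2:**
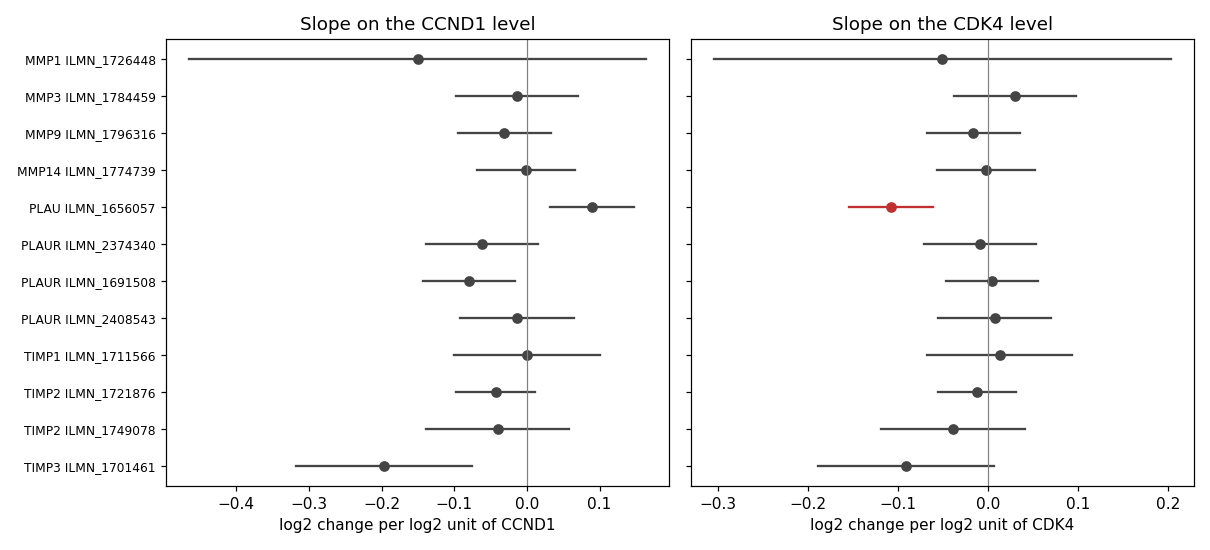
Slopes of the 12 tested probes on the CCND1 level (left) and on the CDK4 level (right), in log2 units per log2 unit of the target, from 1 limma fit over 12 arrays, with 95% confidence intervals. The 1 slope past an adjusted p of 0.05, PLAU on CDK4 (-0.11), is in red, and the intervals of MMP1 are the widest.

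MMP1, the interstitial collagenase that cuts fibrillar collagen, was the most variable of the 9 genes. On the arrays labelled no siRNA 1, 2 and 3 its intensity was 1818, 3629.5 and 2728. Under non-targeting siRNA it was 2280, 4037 and 3708, under cyclin D1 siRNA 3098, 2879.9 and 1770.4, and under CDK4/6 siRNA 2893, 1676 and 4575. All 4 labels overlapped, and the 4 lowest arrays carried 4 different labels. These 4 arrays also lay 1 each among the arrays with the lowest CCND1, with intermediate CCND1, with low CDK4 and CDK6, and with all targets high. The MMP1 slope was -0.15 on CCND1 (SE 0.15, 95% CI -0.46 to 0.16, adjusted p = 0.763 by limma) and -0.051 on CDK4 (SE 0.12, adjusted p = 0.951). The CCND1 slope was -0.058 without the array labelled no siRNA 1 and -0.23 without cyclin D1 siRNA 1, and passed the threshold in no fit that left out 1 array. A smaller range than that of MMP1 was found for 99.9% of the tested probes.

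MMP3, stromelysin 1, which has a broad range of matrix substrates and activates other MMP precursors, was low and ranged from 89.6 to 117 with a median of 107. Its 4 highest arrays, at 115 to 117, were those labelled cyclin D1 siRNA 1, no siRNA 2, non-targeting siRNA 2 and CDK4/6 siRNA 3, and again no label or target level was shared by all 4. MMP9, gelatinase B, ranged from 39.6 to 51.7 and passed the background level on 6 of the 12 arrays, 2 of 3 for each label except cyclin D1 siRNA, where it was not above background on any of the 3 (41.2, 43.9 and 42.8). For that group only a ratio to the background can be given: 1.01-fold, 1.02-fold and 1.03-fold for non-targeting siRNA, no siRNA and CDK4/6 siRNA. It sets the mean normalised log2 values of all 3 arrays of the brighter group against the dimmer group. On each array of the dimmer group the higher of the probe and the lowest signal above background was taken. The adjusted p was 0.9999 by limma against non-targeting siRNA. Each brighter group also held an array below background, so these ratios are not lower bounds and do not show that MMP9 was higher. No difference in MMP9 was detected at this signal. MMP14, the membrane-anchored enzyme MT1-MMP, was high everywhere, between 8457 and 10167 with a median of 9595. Its 2 lowest arrays, labelled no siRNA 1 (8457) and CDK4/6 siRNA 2 (8530), were 2 of the 3 arrays lowest in MMP1.

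PLAU was highest on the 3 arrays with low CDK4 and CDK6. Its intensity was 330.0 on the array labelled CDK4/6 siRNA 2, 321 on non-targeting siRNA 2 and 335 on no siRNA 3. On the 3 arrays with all targets high it was 250.0 (both no siRNA 1 and cyclin D1 siRNA 1) and 260.0 (CDK4/6 siRNA 1). On the 3 arrays with intermediate CCND1 it was 259 (cyclin D1 siRNA 3), 234 (CDK4/6 siRNA 3) and 247 (non-targeting siRNA 3). The arrays with the lowest CCND1 held the 2 lowest values, 207 (no siRNA 2) and 209 (non-targeting siRNA 1), beside 246 (cyclin D1 siRNA 2). No other array reached the 3 with low CDK4, whereas the ranges of the remaining arrays overlapped between intermediate and lowest CCND1. The slope on CDK4 was -0.11 (SE 0.022, 95% CI -0.15 to -0.061, adjusted p = 0.0167 by limma), and the slope on CCND1 was 0.090 (SE 0.027, 95% CI 0.032 to 0.15, adjusted p = 0.101).

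The PLAU call with CDK4 rested on 12 arrays of which 3 carry the low level, and its value moved across the threshold with single arrays. Its sign was negative under all 26 alternative settings run, of which 19 kept the call. It was lost without the array labelled no siRNA 1 (adjusted p = 0.0811 by limma), cyclin D1 siRNA 1 (0.0857), CDK4/6 siRNA 1 (0.0525) or no siRNA 3 (0.0815), with slopes between -0.11 and -0.10 in all 4 fits. The other losses were with a smaller normexp offset of 16 (adjusted p = 0.0542), with the level as a rank (0.147) and with the replicate number as a block. With CDK6 in place of CDK4 the slope was -0.14 (adjusted p = 0.0354), and the 2 kinases cannot be told apart because they were low on the same arrays. By label, PLAU had a mean of 259 ± 56.6 (SD, n = 3) with non-targeting siRNA, 264 ± 65.2 for no siRNA, 252 ± 6.73 for cyclin D1 siRNA and 275 ± 49.8 for CDK4/6 siRNA, with overlapping arrays in every pair of labels.

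**Figure D3:**
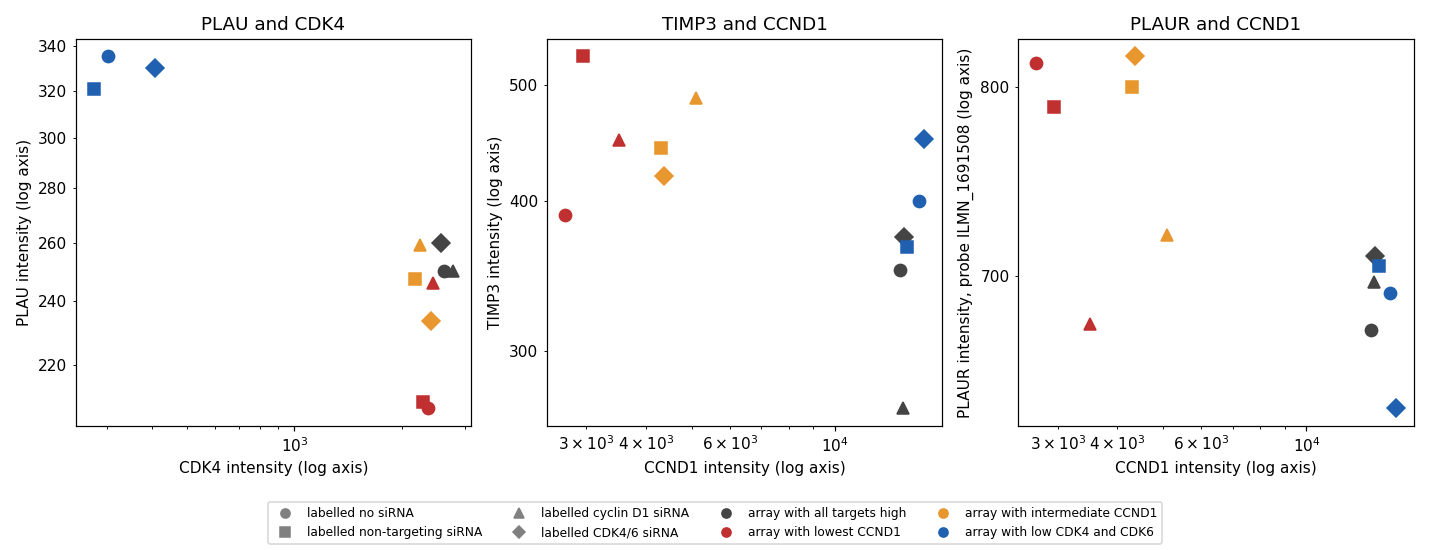
Intensity of PLAU against CDK4 (left), TIMP3 against CCND1 (middle) and PLAUR probe ILMN_1691508 against CCND1 (right) on the 12 arrays, all axes logarithmic. Marker shape gives the label and colour the measured level of the targets. The 3 arrays with low CDK4 hold the 3 highest PLAU values, while TIMP3 and PLAUR overlap between arrays with high and lower CCND1.

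Promoter sequences are shown for PLAU, PLAUR and TIMP3, the 3 genes with a slope at an unadjusted p below 0.05, so that AP-1 and ETS letters stand beside the levels of these genes. Windows of 200 bases upstream of the annotated start were taken from RefSeq (GRCh38.p14), which held 6 windows for 5 of the 9 genes. Both strands were searched for 4 motifs: AP-1 (TGANTCA), an ETS core (AGGAAG), a GC box (GGGCGG) and TATAAA. Capitals mark each match as it stands on the printed strand, so a match on the other strand appears as its reverse complement (CTTCCT or CCGCCC). The PLAU window, 1 of 2 for this gene and the one with matches, is chr10:73910932-73911131 on the plus strand, PLAUR is chr19:43670170-43670369 on the minus strand and TIMP3 is chr22:32801505-32801704 on the plus strand, each printed 5′ to 3′ along its gene.
PLAU: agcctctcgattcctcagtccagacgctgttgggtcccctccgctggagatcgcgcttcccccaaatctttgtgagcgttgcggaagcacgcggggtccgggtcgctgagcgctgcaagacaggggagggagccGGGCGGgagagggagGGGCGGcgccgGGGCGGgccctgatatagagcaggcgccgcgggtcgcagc
PLAUR: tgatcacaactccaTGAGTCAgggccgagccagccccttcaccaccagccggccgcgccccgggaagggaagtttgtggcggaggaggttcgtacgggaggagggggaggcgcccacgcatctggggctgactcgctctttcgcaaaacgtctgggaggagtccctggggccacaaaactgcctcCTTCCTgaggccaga
TIMP3: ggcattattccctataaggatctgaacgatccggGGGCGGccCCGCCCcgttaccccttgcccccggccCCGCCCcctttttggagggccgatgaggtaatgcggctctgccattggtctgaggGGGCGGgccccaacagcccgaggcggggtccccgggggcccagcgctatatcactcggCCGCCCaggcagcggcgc
PLAU held 3 GC boxes, beginning 66, 51 and 40 bases before the start. PLAUR held the AP-1 letters 186 bases and the ETS letters 15 bases before its start. TIMP3 held 5 GC boxes. No 2 matches overlapped. Of 35116 human windows of the same length, 5.38% held the AP-1 letters, 23.9% the ETS core, 40.1% a GC box and 8.59% TATAAA, and a match here is a description of the letters and not of a bound factor.

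PLAUR, the urokinase receptor, was measured by 3 probes, none of which passed the test with either target. Probe ILMN_1691508 was lowest on the array labelled CDK4/6 siRNA 2 (638) and highest on CDK4/6 siRNA 3 (817), with a median of 708. It ranged from 677 to 817 on the 6 arrays with lower CCND1 (2702 to 5100) and from 638 to 710 on the other 6, so the ranges overlapped through the array labelled cyclin D1 siRNA 2 (677). Its slope on CCND1 was -0.079 (SE 0.029, adjusted p = 0.213 by limma), and without that array it was -0.099 (adjusted p = 0.0482). Probe ILMN_2374340 ranged from 1025 to 1379.5 with a slope of -0.062 (SE 0.036, adjusted p = 0.510). Probe ILMN_2408543 ranged from 338 to 443 with a slope of -0.013 (SE 0.036, adjusted p = 0.938). The CDK4 slopes of all 3 lay between -0.0091 and 0.0071.

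TIMP3, an inhibitor that is held in the matrix, was the most variable inhibitor. With no siRNA its intensity was 351, 389.9 and 400.0 on replicates 1, 2 and 3. Under non-targeting siRNA it was 528.5, 367 and 443, under cyclin D1 siRNA 269, 450.5 and 488, and under CDK4/6 siRNA 373, 451 and 419.8. The lowest array was labelled cyclin D1 siRNA 1 and the highest non-targeting siRNA 1, and all 4 labels overlapped. On the 6 arrays with lower CCND1 it ranged from 389.9 to 528.5 and on the other 6 from 269 to 451. The slope on CCND1 was -0.20 (SE 0.056, 95% CI -0.32 to -0.075), which missed the threshold (adjusted p = 0.0850 by limma), and on CDK4 it was -0.091 (SE 0.045, adjusted p = 0.516). Without the array labelled no siRNA 2 the CCND1 slope passed the threshold (-0.25, adjusted p = 0.0328 by limma), and without cyclin D1 siRNA 1, its lowest array, it was -0.13 (adjusted p = 0.376) and the CDK4 slope -0.039 (adjusted p = 0.934).

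TIMP1, a secreted inhibitor of most MMPs, was high on all arrays, from 7623 (cyclin D1 siRNA 3) to 10531 (cyclin D1 siRNA 1) with a median of 8711. These extremes shared a label, and the slope on CCND1 was 0.000066 (adjusted p = 0.9997 by limma). TIMP2 was measured by 3 probes, of which ILMN_1664583 was above background on 1 array only (35.4 to 44.4) and was not tested. Probe ILMN_1721876 ranged from 4961 to 5998, and its 3 highest arrays (5804 to 5998) were the 3 with intermediate CCND1, an observation made after the values were seen and not tested. Probe ILMN_1749078 did not share it: it ranged from 276 to 398 on those arrays and from 269 to 398 over all. The slopes of the MMP3, MMP9, MMP14, TIMP1 and both tested TIMP2 probes lay between -0.043 and 0.000066 on CCND1, with no adjusted p below 0.514 by limma, and between -0.039 and 0.030 on CDK4.

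By label, none of the 9 genes passed the test. The targets themselves did not separate by label either. CCND1 had a mean of 7497 for cyclin D1 siRNA and 7150 for non-targeting siRNA. CDK4 had a mean of 1793 for CDK4/6 siRNA and 1577 for non-targeting siRNA. The label comparisons therefore cannot show whether silencing changed the 9 genes. In 1 limma fit over the 4 labelled groups, 0 of the 12 probes and 0% of all 27021 probes passed an adjusted p of 0.05 in any of the 4 comparisons: cyclin D1 siRNA against non-targeting siRNA, CDK4/6 siRNA against non-targeting siRNA, cyclin D1 siRNA against CDK4/6 siRNA, and no siRNA against non-targeting siRNA. At an unadjusted p below 0.05 there were 768, 532, 378 and 515 probes (2.84%, 1.97%, 1.40% and 1.91%), and 0 of them belonged to the 9 genes. On the same values and replicates, the methods' t-test gave 673, 622, 418 and 645 probes unadjusted, and 0 after adjustment in all 4. The 1 probe of the 9 genes among them was TIMP2 ILMN_1749078 in the last comparison. It was at 294, 303 and 298 with no siRNA and at 310.2, 312 and 309 with non-targeting siRNA. The largest label difference was that of MMP1, with a mean of 3342 ± 934 (SD, n = 3) for non-targeting siRNA and 2583 ± 712 for cyclin D1 siRNA. Its log2 fold change was -0.37 (SE 0.37, 95% CI -1.17 to 0.44, adjusted p = 0.9999 by limma), an interval that holds changes of either sign, and it lay between -0.62 (without non-targeting siRNA 1) and -0.12 (without cyclin D1 siRNA 3) when 1 array was left out. For CDK4/6 siRNA the MMP1 mean was 3048 ± 1456 and the log2 fold change -0.21 (95% CI -1.01 to 0.60). The log2 fold change of TIMP3 was -0.17 for cyclin D1 siRNA (95% CI -0.58 to 0.24) and -0.090 for CDK4/6 siRNA (95% CI -0.50 to 0.32), and that of PLAU was -0.019 and 0.084. The first 2 comparisons and the last share the non-targeting arrays.

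Proteases and inhibitors were next compared with each other over the 12 arrays, as 66 pairs of tested probes on the log2 scale. After adjustment over the 66 pairs, 0 had a permutation p below 0.05 (two-sided, 100000 resamples), and 12 did before it, 7 with a positive and 5 with a negative r. The positive ones include a pair of probes of the same gene, PLAUR ILMN_2374340 with ILMN_1691508 (r = 0.59). The share over pairs of all tested probes was not computed, so the 12 are not read as a result about these genes. MMP1 with TIMP1, a pair singled out after its values were seen, had r = 0.75 (permutation p = 0.0051, adjusted 0.162) and rho = 0.77 (permutation p = 0.0050, adjusted 0.135). Without the 2 arrays farthest from the MMP1 median r was 0.58, after both target levels were fitted it was 0.79, and for deviations from the label means it was 0.81. MMP1 with MMP14 had r = 0.71 (permutation p = 0.0098, adjusted 0.162) and rho = 0.54 (permutation p = 0.0749, adjusted 0.380), and r = 0.59 without the 2 arrays. Among the negative pairs, PLAUR probe ILMN_2408543 with TIMP1 had r = -0.71 (permutation p = 0.0084, adjusted 0.162) and rho = -0.67 (permutation p = 0.0196, adjusted 0.216), and r = -0.48 without the 2 arrays farthest from its PLAUR median. MMP1 with the same PLAUR probe had r = -0.62 (permutation p = 0.0328, adjusted 0.260) and rho = -0.58 (permutation p = 0.0515, adjusted 0.309), and r = -0.31 without 2 arrays, whereas with PLAUR probe ILMN_1691508 MMP1 had r = 0.60 (permutation p = 0.0426, adjusted 0.260) and rho = 0.62 (permutation p = 0.0373, adjusted 0.274), and r = 0.52 without 2 arrays. On the array labelled CDK4/6 siRNA 2, MMP1 and MMP3 were at their lowest and MMP14 and TIMP1 at their second lowest of the 12 values.

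**Figure D4:**
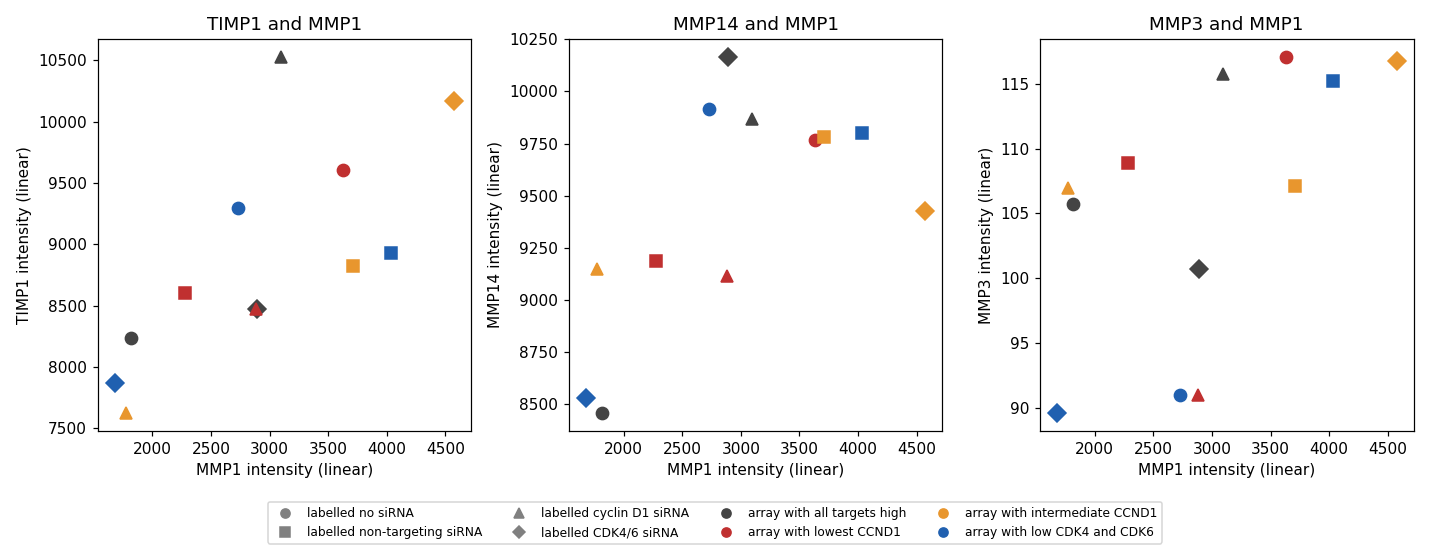
Intensity of TIMP1 (left), MMP14 (middle) and MMP3 (right) against MMP1 on the 12 arrays, linear axes that do not start at 0. Marker shape gives the label and colour the measured level of the targets. TIMP1 was 10167 and 10531 at MMP1 values of 4575 and 3098, and between 7623 and 8238 on the 3 arrays with the lowest MMP1, which carry 3 labels.

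Other genes of the pathway were counted in 6 lists, to be read against the 3.39% of all probes that passed with CCND1 and the 2.25% that passed with CDK4. Among the other MMPs, 1 of 15 tested genes (1 of 17 probes) passed with CCND1: MMP12, the macrophage elastase, had a slope of 0.38 (SE 0.077, adjusted p = 0.0128 by limma). MMP12 lay between 234 and 285 on the 3 arrays with the lowest CCND1 and between 441 and 561 on the other 9, including the 3 with intermediate CCND1 (441 to 512). The MMP12 call was lost without the array labelled cyclin D1 siRNA 1 (adjusted p = 0.0523) or no siRNA 2 (0.0553). Among 14 tested AP-1 and ETS genes, 1 (1 of 17 probes) passed with CCND1: ATF3, a stress-induced factor that joins AP-1 dimers, had a slope of 0.23 (SE 0.052, adjusted p = 0.0252). ATF3 lay between 927 and 1037 on the arrays with the lowest CCND1 and between 1067 and 1682 on the others. Its call was lost without the array labelled no siRNA 1 (adjusted p = 0.134), non-targeting siRNA 1 (0.0599), no siRNA 2 (0.0909) or cyclin D1 siRNA 2 (0.0539). MMP12 and ATF3 were named because their slopes passed, so their ranges describe the same values and add no support. None of the 9 tested genes of the plasminogen system and its serpins, 13 other MMP inhibitors, activators and inducers, 17 ADAM and ADAMTS proteases, and 20 cathepsins and cystatins passed with CCND1. With CDK4, none of the 6 lists had a gene past the threshold.

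The genes most like PLAU over the 12 arrays were AKIRIN2 (r = 0.90 on the log2 scale, 702 to 797), LCE6A (r = 0.90, 38.2 to 46.5) and FXYD1 (r = 0.89, 44.5 to 53.5), taken from all tested probes with 1 symbol. LCE6A and FXYD1 lay close to background, and all 3 coefficients span the 3 arrays on which PLAU stood apart. Markers of leukocytes were checked because macrophages are a rich source of proteases. PTPRC (3 probes) and ITGAM (34.2 to 42.5) were not above background on any array, and CD3E was on 1 (39.0 to 46.2). CD68 was bright on all 12 (4277 to 5143 with its brightest probe). LYZ lay just above background on 11 with 1 of its 2 probes (43.0 to 51.8). The summed intensity of the list ranged from 4592 to 5533, most of it from CD68. Of its 6 tested probes 1 passed with CCND1, with a negative slope, as did 0.955% of all probes. This was CD14 probe ILMN_2396444, with a slope of -0.18 (adjusted p = 0.0217 by limma) and a range of 245 to 400. The other CD14 probe (62.3 to 88.7) did not pass. The part of CD14 in the slopes of the protease genes was not tested.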

How the data were processed

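Labelled RNA of MDA-MB-231 cultures was hybridised to 12 Illumina arrays. The authors deposited 48803 linear intensities per array, whose distributions are nearly equal and still hold the background (lowest 28, median 44.1). The sources used here do not give the software or the normalisation. A second deposited table has 24 per-sample columns whose names match no label, and these were not used. Intensities were background-corrected (normexp, offset 50), quantile-normalised and taken to log2 with limma 3.58.1 in R 4.3.3. The background level of 44.3 was the mode of the intensities (39.5) plus the one-sided 0.05 tail of a normal spread whose SD (2.94) was taken below that mode. Of all probes, 27578 have 1 symbol in the platform annotation, 13 several and 21212 none. The fits were tested on simulated data. Permutation tests used scipy 1.17.1. The text names all probes of the 9 genes, up to 4 called genes of each fixed list, and the 3 genes most like each called probe of the 9 genes. The genes and lists were chosen with earlier results of these data known. Alternatives covered background, normalisation, filter, weights, replicate block, arrays left out, form of the level, control group and test. A slide block was not run because the files do not tie arrays to slides, and a mean over probes of CCND1 or CDK4 was not run because each has 1 tested probe.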

Additional observations from a re-analysis of the deposited data

How the results depend on the processing

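Of 706 values recomputed under alternatives, 642 kept their direction and side of the threshold, or for counts stayed within 1.5 times. The 706 include counts by label that were 0 in the main fits and label fold changes far from the threshold. The share therefore says little about the calls with the target levels. The count of protease and inhibitor probes with CDK4 went from 1 to 0 with a normexp offset of 16, with the level as a rank and with the replicate block, and the count with CCND1 went from 0 to 1 with the level as a rank (PLAU, adjusted p = 0.0255 by limma) or as linear intensity (TIMP3, 0.0488). The MMP12 and ATF3 calls were lost with labels as further terms, with 1 level at a time, with ranks and with linear intensity, and that of ATF3 also with the replicate block. Leaving out 1 array at a time gave counts of 0 to 1 for both targets. Counts over all probes were 917 with CCND1 and 608 with CDK4. They became 235 and 121 with the replicate block, 468 and 318 with labels as further terms, 10 and 31 with 1 level at a time, and 5 and 404 with ranks. Array weights gave 937 with CDK4. Leaving out 1 array gave 505 to 950 with CCND1 and 349 to 681 with CDK4. The causes of these shifts were not tested. Replicate number went in part with the target levels: all arrays with intermediate CCND1 are labelled replicate 3, and all arrays with all targets high are labelled replicate 1. The replicate block therefore also took out part of the level differences, and its fit cannot decide whether a lost call was weak.

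Same-numbered replicates were not treated as paired in the main fits. Over 18 such pairs of arrays the correlation of deviations from label means ran from -0.24 to 0.42. Its median was 0.14, against -0.048 for other pairs, and it passed 0.1 in 10. Because replicate number went in part with the target levels, these values cannot show whether the arrays were paired. With the replicate block the PLAU slope on CDK4 was -0.066 (adjusted p = 0.621 by limma) and the PLAUR ILMN_2408543 slope on CCND1 turned to 0.016. That PLAUR slope ran from -0.023 to 0.010 without 1 array. By label, TIMP3 became 0.038 (cyclin D1 siRNA) and 0.12 (CDK4/6 siRNA) and MMP1 0.10 (CDK4/6 siRNA) with no siRNA as the control, and TIMP3 0.013 (CDK4/6 siRNA) with both controls together. Without 1 array, log2 fold changes for cyclin D1 siRNA ran from -0.32 to 0.084 for TIMP3 and from -0.15 to 0.13 for PLAU, and for CDK4/6 siRNA from -0.048 to 0.24 for PLAU, from -0.22 to 0.035 for TIMP3 and from -0.55 to 0.16 for MMP1. Signal limits MMP9 and 1 TIMP2 probe, which lay near background, and 3 arrays per label left wide intervals for MMP1.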

Other observations

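MMP1 had close companions among genes outside the families described, all chosen after their values were seen. Over the 12 arrays WDR87 (r = 0.97 on the log2 scale, 337 to 859), TMEM267 (r = 0.94, 138 to 208) and ITGA6, an integrin subunit that binds laminin (r = 0.94, 814 to 1197), were the genes most like it. These are values of the same 12 arrays, picked from all tested probes with 1 symbol, and no test was made of them.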
